A study of Homo sapiens with 12 samples.

Results

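Paclitaxel and cytochalasin D, drugs that act on different filaments of the cytoskeleton, were compared in H460, an established human lung cancer cell line with wild-type p53. The 4 arrays were chosen by their titles, 2 for paclitaxel and 2 for cytochalasin D, out of 12 arrays in all. The other 8 held cytarabine at 0.2 µM, cisplatin at 5 µM and 5-FU at 1 µM, each for 24 h. Cells had been exposed for 24 h to 5 nM paclitaxel or to 0.2 µM cytochalasin D. On each of the 4 arrays, total RNA of treated cells filled channel 1 and total RNA of untreated H460 cells filled channel 2. The labels give no vehicle for the untreated cells and no genetic change, and they do not say whether the untreated RNA was shared between arrays or whether the 2 arrays of a drug came from separate cultures, so p-values measure the spread between arrays, which may be technical. A measured value is the log ratio of the channels for a gene, read as treated over untreated, with the array's median set to 0. Because all 4 arrays ran in the same orientation, a bias between the channels falls out of the difference between the drugs, whereas it remains in each drug's own ratio. A difference between the untreated RNAs of the arrays, if there was one, stays in the comparison. Such ratios hold no expression level, so the cell line could not be checked against marker genes.

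Paclitaxel binds beta-tubulin within the microtubule and stabilises it, which disturbs the mitotic spindle. Cytochalasin D caps the growing end of actin filaments and also binds actin monomers, so that filaments shorten and stress fibres are lost. The pool of actin monomers is read by MRTF coactivators: monomeric actin holds them inactive, and once released they act with serum response factor, SRF, at a promoter element called the CArG box. Cytochalasin D is known to free MRTF from monomeric actin. A second actin-dependent route runs through the coactivators YAP and TAZ, which act with TEAD factors and are switched off when tension on the actin skeleton is lost. Tubulin genes have a control of their own, in which free tubulin dimers shorten the life of tubulin mRNAs.

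The 4 arrays had values for most probes. Between 8.04% and 8.53% of the 8170 probes lacked one on an array, and the replicate arrays correlated across probes with Pearson r of 0.713 for paclitaxel and 0.748 for cytochalasin D. Across the 6855 genes and unnamed probes with values on all 4 arrays, the median absolute difference between the drugs was 0.108. The corresponding median between replicate arrays was 0.114 for paclitaxel and 0.0981 for cytochalasin D. The figure for the drugs is a difference of means over the arrays of each drug. The replicate figures are differences between individual arrays, which spread more than means do. These medians are therefore not like quantities, and they cannot show whether differences between the drugs were of replicate size. The number of arrays limits the precision, and no counts or spot intensities were used here. The direction of the deposited ratio is not stated. It was set by the p53 response to 5-FU, in which MDM2 averaged 1.49 and CDKN1A 2.51 once treated over untreated was taken as positive, and is therefore likely rather than known. MDM2 on the cisplatin arrays, which share the orientation of the 4 arrays, read 2.75 and 2.57 with the same sign. The log base is not stated either and was taken as log2.

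Of 7163 features tested, 6 genes differed between the drugs past an adjusted p of 0.05, a share of 0.0838%. The ratio was higher under paclitaxel for CCN2, BRAP, CCN1 and EXO1, which is 4 genes or 0.0558%. It was lower under paclitaxel for ACTG1 and ABCC4, which is 2 genes or 0.0279%. CCN1 and CCN2 encode secreted matricellular proteins, ACTG1 encodes cytoplasmic gamma-actin, and none of the 6 is a tubulin. The test was limma's moderated test on 8 arrays of the same orientation, with a mean for each of paclitaxel, cytochalasin D, cytarabine and cisplatin. Without adjustment, 842 features (11.8%) had p under 0.05. Scaling the arrays to the same spread gave 18 calls, 9 in each direction, so the excess of genes higher under paclitaxel did not hold there. The calls rest on few arrays: with the 4 arrays alone limma called 0 features (856 at unadjusted p under 0.05), and without the first cytochalasin D array it called 0 (569 at unadjusted p under 0.05). Without the first paclitaxel array CCN2 was the 1 call left. In each of these fits the 6 genes kept their direction.

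**Figure D1:**
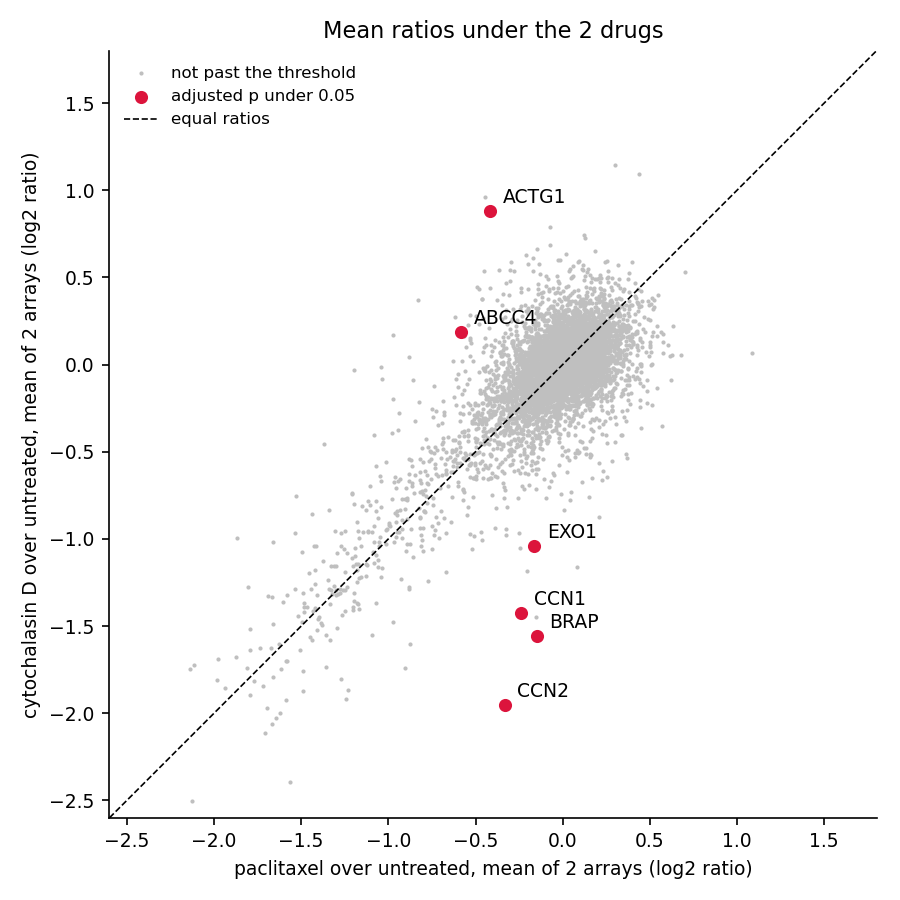
Mean log2 ratio of treated over untreated under paclitaxel (horizontal axis) and under cytochalasin D (vertical axis) for the 6855 features with values on all 4 arrays, each point a mean of 2 arrays, with the dashed line at equal ratios. CCN2, BRAP, CCN1 and EXO1 sit far below the line, ACTG1 and ABCC4 above it, and the long tail of low ratios along the line has about the same ratio under both drugs.

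CCN2, also called CTGF, and CCN1, also called CYR61, are targets of both YAP with TEAD and MRTF with SRF, and their proteins bind integrins in the matrix. CCN2 read -0.25 and -0.42 on the paclitaxel arrays and -1.95 and -1.96 on the cytochalasin D arrays. Both cytochalasin D values lay far below both paclitaxel values. The difference was 1.62 ± 0.09 (SE, 95% interval 1.41 to 1.83), a 3.08-fold higher ratio under paclitaxel (limma, adjusted p = 0.00414), and it was the largest difference among all features on the 4 arrays. CCN1 read -0.26 and -0.22 under paclitaxel and -1.39 and -1.46 under cytochalasin D. The groups did not overlap, and the difference was 1.19 ± 0.08 (SE, 95% interval 1.01 to 1.37; adjusted p = 0.00414), or 2.28-fold. For the pair, the direction was the same under every scaling tried and without any one array.

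The 250 bases before the RefSeq start of CCN2 and of the actin genes ACTG1 and ACTG2 (build GRCh38.p14) are shown because the TEAD motif and the CArG box, the elements read by the 2 actin-dependent routes, occur there. Capitals mark the TEAD motif in CCN2 and the CArG box in the actin genes, and each sequence runs 5′ to 3′ towards the start on the gene's strand. The CCN2 window is chr6:131951373-131951622 on the minus strand, the ACTG1 window is chr17:81512800-81513049 on the minus strand and the ACTG2 window is chr2:73892758-73893007 on the plus strand.
CCN2: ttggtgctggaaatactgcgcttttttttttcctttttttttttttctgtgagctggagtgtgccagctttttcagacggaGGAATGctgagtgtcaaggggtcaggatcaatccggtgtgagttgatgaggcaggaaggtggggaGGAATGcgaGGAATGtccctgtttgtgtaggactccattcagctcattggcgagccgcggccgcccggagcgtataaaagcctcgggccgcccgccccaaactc
ACTG1: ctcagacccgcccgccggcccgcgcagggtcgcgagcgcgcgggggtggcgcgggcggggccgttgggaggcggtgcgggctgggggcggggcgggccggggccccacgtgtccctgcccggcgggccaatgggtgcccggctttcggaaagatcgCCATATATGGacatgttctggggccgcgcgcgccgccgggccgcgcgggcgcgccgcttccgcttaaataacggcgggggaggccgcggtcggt
ACTG2: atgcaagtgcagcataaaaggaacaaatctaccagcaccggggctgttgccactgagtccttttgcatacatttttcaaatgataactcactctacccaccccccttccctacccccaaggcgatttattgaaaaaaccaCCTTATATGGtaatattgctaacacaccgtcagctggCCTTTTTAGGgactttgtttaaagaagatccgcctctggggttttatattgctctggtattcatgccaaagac

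Promoter windows of 15 of 17 genes looked up were searched. The genes looked up were the 6 that passed, the control genes MDM2, CDKN1A and SRF, and the actin and tubulin genes described here. CCN1 and ACTB were not searched. Motifs were searched on both strands. The TEAD motif GGAATG matched in 1 of the 15, CCN2, which held it at 169 to 164, 104 to 99 and 95 to 90 bases before the start. Of all 27305 promoter windows of that length, 11.9% held it. The CArG box matched in 3 of the 15, at 94 to 85 bases before the start in ACTG1, at 110 to 101 and 73 to 64 in ACTG2, and at 30 to 21 and 10 to 1 in SRF, against 1.14% of all windows. The AP-1 motif TGANTCA matched in 0 of the 15, against 6.60% of all windows. The CHR element TTTGAA, a motif of cell cycle promoters, matched in 2 of the 15 against 13.6%, and the CCAAT box in 7 of the 15 against 33.0%. The genes were picked by name or by their values, so shares among the 15 cannot show enrichment over all windows. Among those with a CArG box, ACTG1 alone had passed. A match describes letters in this window and is not a measured binding site.

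ACTG1, which with ACTB supplies the actin of non-muscle cells, moved the other way from the CCN genes. It read -0.40 and -0.43 under paclitaxel and 0.94 and 0.82 under cytochalasin D. All values under cytochalasin D were above 0 and above both paclitaxel values. The difference was -1.30 ± 0.08 (SE, 95% interval -1.50 to -1.10; limma, adjusted p = 0.00414), a 2.46-fold lower ratio under paclitaxel. ACTG2, the gamma-actin of smooth muscle, read -0.24 and -0.35 under paclitaxel against 0.43 and 0.74 under cytochalasin D, and the difference of -0.88 ± 0.14 missed the threshold (adjusted p = 0.128). ACTB, cytoplasmic beta-actin, read -0.20 and -0.23 against 0.16 and 0.31, a difference of -0.45 ± 0.09 that missed it too (adjusted p = 0.178). The values of the 3 actin genes did not overlap between the drugs. Their coding sequences are similar, and how far RNA of one actin gene bound to the probe of another was not tested. The 3 are therefore not counted as separate observations.

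Genes for proteins that start or branch actin filaments were compared next. Of 16 tested genes for actins and actin nucleators, 1 passed lower under paclitaxel (ACTG1) and 0 passed higher. Unadjusted p was under 0.05 for 6 of the 16, where 11.8% of all features had it. The median difference was -0.14, where the median over all features was 0.00046. Among the 15 with values on all 4 arrays, both paclitaxel values lay below both cytochalasin D values for 6 and above them for 3, which is 40.0% and 20.0%. Over all 6855 features those shares were 22.5% below and 23.2% above. The formin DIAPH2 read -0.54 and -0.22 under paclitaxel and 0.81 and -0.06 under cytochalasin D, a difference of -0.75 ± 0.28 (adjusted p = 0.398) with the cytochalasin D arrays far apart. WASL, which activates the branching ARP2/3 complex, overlapped between the drugs, with -0.25 and -1.40 under paclitaxel and 0.09 and -0.53 under cytochalasin D (difference -0.61 ± 0.44). ACTR3, a subunit of that complex, read -0.57 and -0.59 against -0.10 and -0.23.

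**Figure D2:**
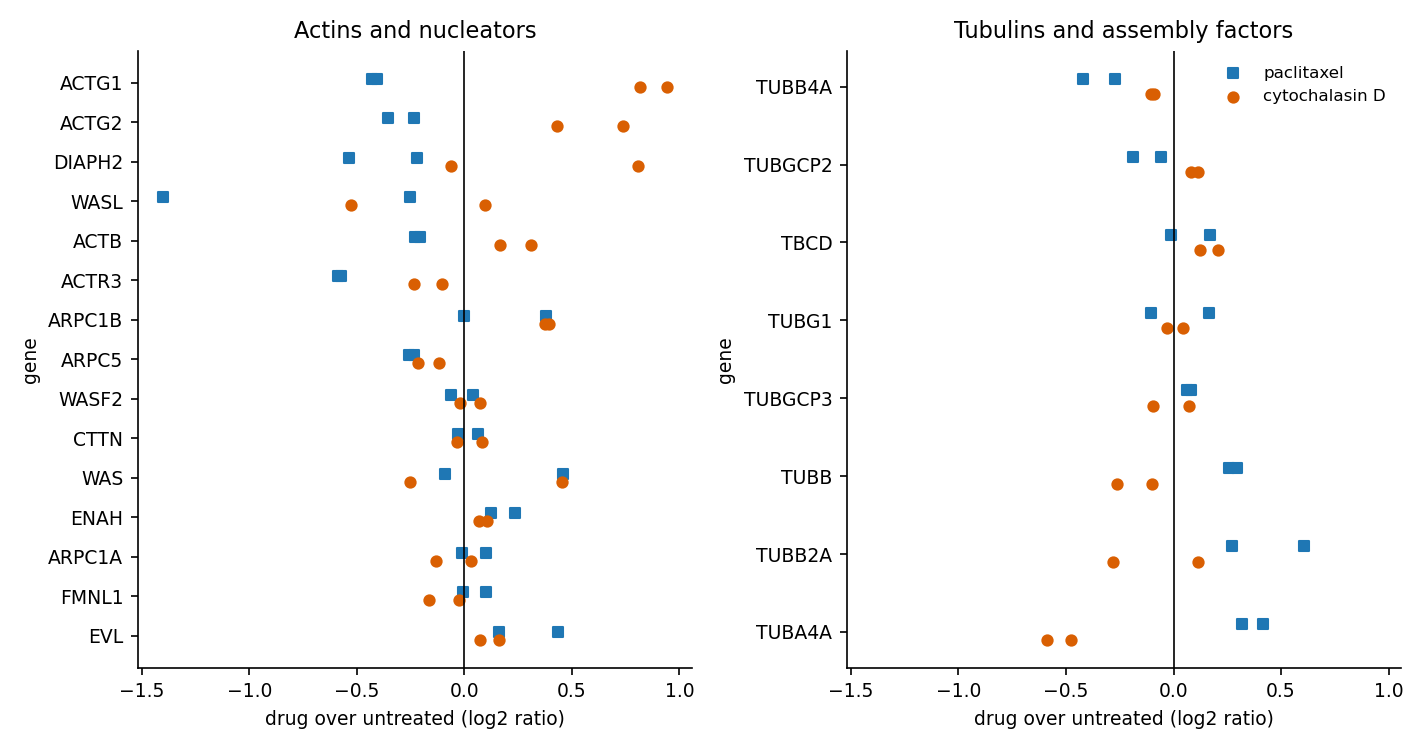
Log2 ratio of treated over untreated (horizontal axis) on each of the 2 paclitaxel arrays (squares) and 2 cytochalasin D arrays (circles), for the actin and nucleator genes (left) and the tubulin genes with their assembly factors (right) that have values on all 4 arrays, ordered by difference. ACTG1, ACTG2 and ACTB lie to the left of 0 under paclitaxel and to the right under cytochalasin D, and TUBB and TUBA4A the other way round.

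Tubulin genes showed the opposite pattern in part, with no gene past the threshold. Of 8 tested genes for tubulins and their assembly factors, 0 passed in either direction by limma, and 5 had unadjusted p under 0.05, where 11.8% of all features did. TUBA4A, an alpha-tubulin, read 0.42 and 0.32 under paclitaxel and -0.59 and -0.48 under cytochalasin D, a difference of 0.90 ± 0.12 (adjusted p = 0.0773). TUBB, the main beta-tubulin of dividing cells, read 0.26 and 0.30 against -0.26 and -0.10, with a difference of 0.46 ± 0.09 (adjusted p = 0.178). TUBB2A read 0.27 and 0.60 against -0.28 and 0.12, and the paclitaxel values were again the higher ones. TUBB4A, a beta-tubulin of neurons, had its values on the other side, at -0.42 and -0.27 under paclitaxel and -0.09 and -0.10 under cytochalasin D. Both paclitaxel values lay above both cytochalasin D values for 3 of the 8 and below for 2, which is 37.5% and 25.0% against 23.2% and 22.5% of all features.

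Of 18 tested microtubule-associated and severing proteins, 24 kinesins and dyneins and 24 genes of mitosis and the spindle checkpoint, 0 passed in either direction. Unadjusted p was under 0.05 for 1, 4 and 3 of them, against 11.8% of all features. Their median differences were 0.02, 0.03 and -0.00034. TTL, the ligase that restores the terminal tyrosine of alpha-tubulin, read 0.29 and 0.42 under paclitaxel and -0.12 and -0.16 under cytochalasin D. DYNC1H1, the heavy chain of cytoplasmic dynein, read -0.18 and -0.11 against 0.23 and 0.32. KIF2A, a kinesin that takes apart microtubule ends, was low under both drugs, at -1.20 and -0.98 against -1.39 and -1.72. The checkpoint gene MAD2L1 differed by 0.30 ± 0.10 and the centromere genes CENPA and CENPB by 0.32 ± 0.10 and 0.35 ± 0.11, without overlap. CDC27, a subunit of the anaphase-promoting complex, differed by -0.35 ± 0.17, also without overlap. These 4 were named as the largest differences of the mitosis list. Among mitosis genes, both paclitaxel values lay above for 6 of 23 and below for 5 of 23 (26.1% and 21.7%), shares close to those of all features.

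BRAP, EXO1 and ABCC4 completed the genes past the threshold. BRAP encodes a ubiquitin ligase that binds BRCA1 and restrains Ras signalling. It read -0.20 and -0.10 under paclitaxel and -1.56 and -1.55 under cytochalasin D, and the difference was 1.41 ± 0.10 (SE, 95% interval 1.18 to 1.64; adjusted p = 0.00494), or 2.65-fold. EXO1, an exonuclease of mismatch repair and DNA end resection, read -0.10 and -0.22 against -0.98 and -1.11, a difference of 0.88 ± 0.09 (adjusted p = 0.0365). ABCC4 encodes the efflux pump MRP4, which exports cyclic nucleotides and nucleoside analogues. It read -0.63 and -0.54 under paclitaxel and 0.15 and 0.22 under cytochalasin D, a difference of -0.77 ± 0.08 (adjusted p = 0.0489), or 1.70-fold lower. For none of the 3 did the values overlap between the drugs. EXO1 and ABCC4 lost their call when any one of the 8 arrays was left out, with adjusted p up to 0.173 and 0.190. BRAP lost its call without the first paclitaxel array (0.0529) and without either cytochalasin D array (0.0656 and 0.0513).

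The arrays of cytarabine and cisplatin, run in the same orientation, were set beside those of paclitaxel and cytochalasin D for these 6 genes. Against the mean of cytarabine and cisplatin, 219 of 6967 features (3.14%) passed for cytochalasin D and 19 (0.273%) passed for paclitaxel. The comparisons share the cytarabine and cisplatin arrays, so the counts are set side by side and their difference was not tested. All 6 genes passed for cytochalasin D, but they had been selected on these same cytochalasin D arrays, so this is not separate support. ACTG1 was higher by 1.17 ± 0.07 and ABCC4 by 0.75 ± 0.07, while CCN1 differed by -1.80 ± 0.07, CCN2 by -1.30 ± 0.08, EXO1 by -1.16 ± 0.07 and BRAP by -1.08 ± 0.08. For paclitaxel CCN1 passed, at -0.61 ± 0.07 (adjusted p = 0.0449), and the other genes of the 6 did not: ACTG1 at -0.13, ABCC4 at -0.02, EXO1 at -0.29, and CCN2 and BRAP at 0.33 each. Against cytarabine alone the direction for paclitaxel turned for 4 of these, to 0.26 for ABCC4, 0.11 for EXO1, -0.27 for CCN2 and -0.14 for BRAP.

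The cytarabine and cisplatin arrays were not alike for all 6 genes. CCN2 read -0.02 and -0.11 under cytarabine but -1.23 and -1.28 under cisplatin, so the cisplatin values lay between those of paclitaxel and cytochalasin D. BRAP was placed in the same way, at -0.12 and 0.11 under cytarabine and -0.94 and -0.95 under cisplatin. CCN1 read 0.10 and 0.16 under cytarabine and 0.59 and 0.63 under cisplatin, above both cytoskeletal drugs. ACTG1 read -0.13 and -0.24 under cytarabine and -0.40 and -0.39 under cisplatin, which leaves cytochalasin D the sole drug of the 4 with ratios above 0. ACTB was at 0.50 ± 0.08 for cytochalasin D against the mean of these drugs (adjusted p = 0.0238) and at 0.05 ± 0.08 for paclitaxel. For 5-FU, arrays with treated RNA in channel 1 read -1.43 and -1.53 for CCN2, -1.52 and -1.15 for BRAP, and -1.05 and -1.02 for EXO1. The EXO1 values lay between the 2 cytochalasin D values. ACTG1 read -0.73 and -0.82 there, ABCC4 0.39 and 0.50, and CCN1 -0.14 and -1.72. On the 5-FU arrays with the channels swapped, values are untreated over treated, so a drug effect has the opposite sign. CCN2 read 1.23 and 1.17 there, BRAP 1.18 and 1.06, ACTG1 0.43 and 0.50, and ABCC4 -0.07 and 0.06. EXO1 and CCN1 each had 1 value there, 0.91 and -0.48.

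**Figure D3:**
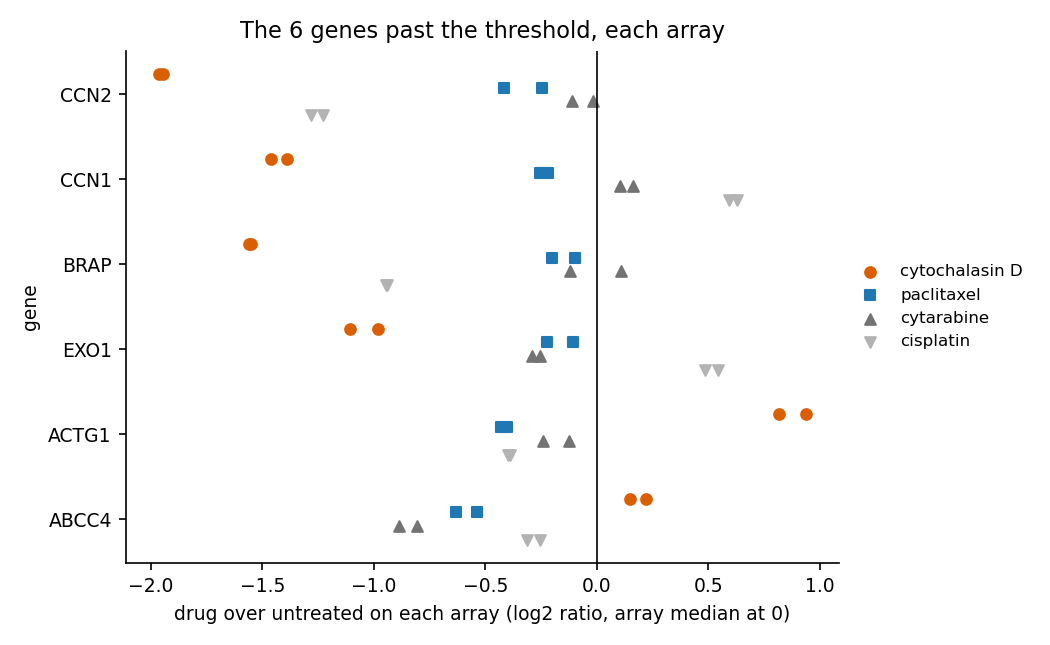
Log2 ratio of treated over untreated (horizontal axis) on each of 8 arrays, 2 per drug, for the 6 genes past the threshold. The cytochalasin D arrays (circles) hold the lowest values for CCN2, CCN1, BRAP and EXO1 and the highest for ACTG1 and ABCC4, with cisplatin nearest to cytochalasin D for CCN2 and BRAP.

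The other genes of the SRF and YAP routes, ACTG1 apart, did not pass. Of 19 tested SRF and MRTF targets, 2 passed higher under paclitaxel (CCN1 and CCN2) and 1 passed lower (ACTG1), with a median difference of 0.07. SRF itself read 0.17 and 0.54 under paclitaxel and -0.17 and 0.24 under cytochalasin D, and its values overlapped. CNN1, the calponin of smooth muscle, read -0.28 and -0.36 against -1.17 and -0.47, with the cytochalasin D arrays far apart. EGR3, an immediate early factor, overlapped between the drugs. Of 8 tested YAP and TEAD targets, the same 2 CCN genes passed, and the median difference was 0.01. Other targets lay on the other side without passing. TGFB2, a TGF-beta ligand, read -0.55 and -0.57 under paclitaxel and -0.31 and 0.23 under cytochalasin D, and NT5E, the ectonucleotidase CD73, read 0.16 and -0.12 against 0.42 and 0.46.

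Of the genes for proteins that bind actin, 0 of 29 passed in either direction, with a median difference of 0.04. At unadjusted p under 0.05 were 5, against 11.8% of all features. Both paclitaxel values were above for 11 of the 29 (37.9%, against 23.2% of all features) and below for 3 (10.3%, against 22.5%). The actin cross-linkers ACTN4, ACTN1 and ACTN2 differed by 0.61 ± 0.33, 0.33 and 0.31, and for ACTN4 the cytochalasin D arrays read -0.05 and -0.91. TMOD1, which caps the pointed end of filaments, read 0.68 and 0.17 under paclitaxel and -0.01 and -0.14 under cytochalasin D. CAPZA1, a subunit of the protein that caps the growing end, where cytochalasin D also binds, read -0.29 and -0.21 against 0.22 and -0.03. TWF1, which binds monomers, differed by -0.26.

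At the cell surface, 0 of 24 tested genes of focal adhesions and integrins and 0 of 20 of cell junctions passed. Among genes of extracellular matrix and proteases, 0 of 38 passed. Unadjusted p was under 0.05 for 3, 0 and 6 of these, against 11.8% of all features. SRC, the adhesion kinase, read -0.07 and -0.21 under paclitaxel and 0.37 and 0.43 under cytochalasin D. ITGB1, the common beta-integrin, read -0.16 and -0.33 against 0.10 and 0.13. Both had the higher ratios under cytochalasin D, while ITGA3 had 0.37 and 0.13 under paclitaxel against -0.21 and 0.02. In the matrix list, both paclitaxel values were below for 14 of 36 genes (38.9%, against 22.5% of all features) and above for 3 (8.33%, against 23.2%), at a median difference of -0.05. NID2, a basement membrane nidogen, read -0.58 and -0.38 against 0.07 and 0.39. MMP1, the interstitial collagenase, read 0.39 and 0.48 under paclitaxel and 1.20 and 0.99 under cytochalasin D, so that the ratios were above 0 under both drugs and higher under cytochalasin D (difference -0.65 ± 0.14, adjusted p = 0.182). Of 15 intermediate filament and lamin genes 0 passed (3 at unadjusted p under 0.05), with vimentin, VIM, at -0.32 and -0.17 against 0.08 and 0.18.

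Among 23 chaperone and heat shock genes 0 passed (5 at unadjusted p under 0.05, against 11.8% of all features). More members lay below than above under paclitaxel. HSPA6, a strictly inducible HSP70, read -0.43 and -0.40 under paclitaxel and 0.32 and 0.56 under cytochalasin D (difference -0.85 ± 0.10, adjusted p = 0.0556). HSPA8, the constitutive HSP70, read -0.51 and -0.42 against 0.37 and 0.38 (difference -0.84 ± 0.12, adjusted p = 0.0866). Binding of RNA from one HSP70 gene to the probe of the other was not tested. DNAJA1, an HSP40 partner of HSP70, read -0.07 and -0.05 against 0.55 and 0.33. HSPA1B, another inducible HSP70, differed by -0.08 and overlapped between the drugs. Both paclitaxel values were below for 8 of the 23 (34.8%, against 22.5% of all features) and above for 2 (8.70%, against 23.2%), and the median difference was -0.05.

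The genes of the amino acid and unfolded protein responses lay mostly on the other side. Of 22 tested, 0 passed (5 at unadjusted p under 0.05, against 11.8% of all features). Both paclitaxel values were above for 12 (54.5%, against 23.2% of all features) and below for 3 (13.6%, against 22.5%). The median difference was 0.11. CEBPB, a transcription factor of that response, read 0.35 and 0.20 under paclitaxel and -0.08 and -0.32 under cytochalasin D. AARS1, the alanyl-tRNA synthetase, read 0.18 and 0.13 against -0.22 and -0.30. ASNS, asparagine synthetase, and TRIB3 differed by 0.21 and 0.22 without overlap. The chaperone of the endoplasmic reticulum CALR went the other way, at -0.30 and -0.32 against 0.02 and -0.01, and so did ATF4, by -0.09.

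Inflammatory and immediate early genes differed in both directions. Of 19 tested NF-kB targets and cytokines and of 16 immediate early genes, 0 passed. At unadjusted p under 0.05 were 3 and 2 of them, against 11.8% of all features. CXCL8, the neutrophil chemokine interleukin-8, read -0.40 and -0.24 under paclitaxel and -0.89 and -0.996 under cytochalasin D (difference 0.62 ± 0.11, adjusted p = 0.165). IER3 read -0.06 and 0.11 against -0.71 and -0.52 (difference 0.64 ± 0.10, adjusted p = 0.128). TNFAIP3, the inhibitor A20 that NF-kB induces, lay on the opposite side, at -0.35 and -0.25 against 0.58 and 0.51 (difference -0.84 ± 0.11, adjusted p = 0.0773). TNFRSF12A, the TWEAK receptor, named after its values were seen, read 0.05 and 0.04 against -0.61 and -0.95. Among NF-kB targets and cytokines, both paclitaxel values were above for 4 of 18 (22.2%, against 23.2% of all features). They were below for 3 (16.7%, against 22.5%). For immediate early genes they were above for 4 of 16 (25.0%) and below for 3 (18.8%). These shares were near those of all features.

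**Figure D4:**
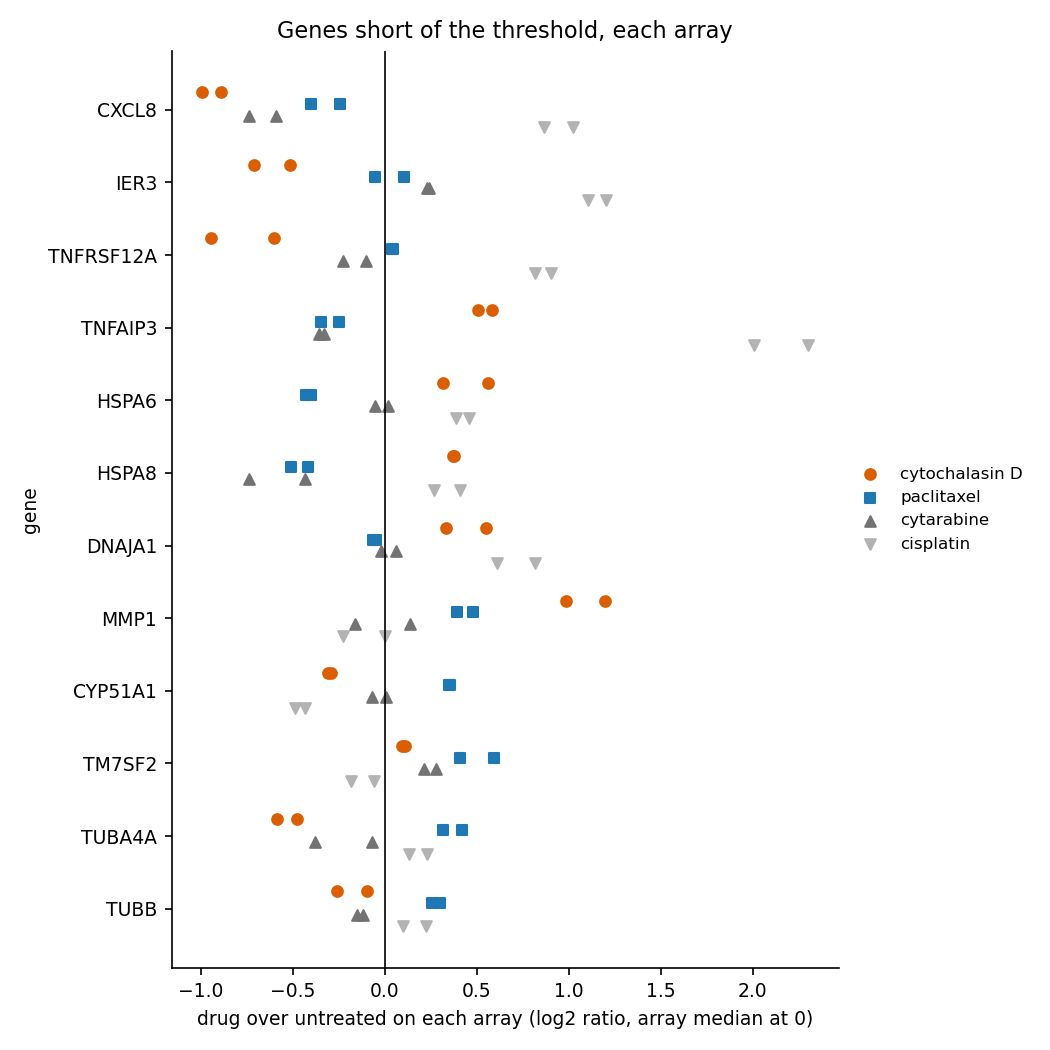
Log2 ratio of treated over untreated (horizontal axis) on each of 8 arrays, 2 per drug, for 12 genes that did not pass the threshold between paclitaxel (squares) and cytochalasin D (circles). The squares and circles of each gene are apart, while the place of cytarabine and cisplatin (triangles) varies by gene. They lie between the drugs for TUBA4A and below both for MMP1, and cisplatin holds the highest TNFAIP3 ratios, above 2.

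Genes of DNA replication and of chromatin had more members above than below under paclitaxel. Again 0 passed the threshold among 39 replication and G1/S genes and 8 histone and HMG genes. At unadjusted p under 0.05 were 9 and 4 of them, against 11.8% of all features. E2F4 read 0.05 and 0.18 under paclitaxel and -0.38 and -0.51 under cytochalasin D, TK1, thymidine kinase, read 0.33 and 0.19 against -0.45 and -0.11, and the clamp loader subunit RFC2 read 0.30 and 0.59 against -0.09 and 0.00. Both paclitaxel values were above for 14 of the 39 (35.9%, against 23.2% of all features) and below for 6 (15.4%, against 22.5%), and the median difference was 0.08. For the histone and HMG genes, both paclitaxel values were above for 6 of 8 (75.0%, against 23.2% of all features). They were below for 1 (12.5%, against 22.5%), and the median difference was 0.23. H2BC21 read 0.29 and 0.31 against -0.08 and -0.05, and HMGB2 read -0.20 and -0.16 against -0.46 and -0.48. H3-3B and HMGA2 had differences below 0, at -0.15 and -0.04. How the cells of the 2 treatments were spread over the cell cycle was not measured.

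Of 20 tested p53 targets and 20 apoptosis genes, 0 passed in either direction. Unadjusted p was under 0.05 for 3 and 2 of them, against 11.8% of all features. Both paclitaxel values were above for 7 of 19 p53 targets (36.8%, against 23.2% of all features) and below for 2 (10.5%, against 22.5%). MDM2, the ubiquitin ligase that p53 induces, read -0.22 and -0.12 under paclitaxel and -0.22 and -0.05 under cytochalasin D, a difference of -0.03 ± 0.14 (95% interval -0.36 to 0.30). CDKN1A, the cell cycle inhibitor p21, read 0.24 and 0.18 against 0.12 and 0.14, and its difference of 0.08 ± 0.30 had an interval of -0.65 to 0.80. TNFRSF10B, a TRAIL receptor on both lists, read 0.15 and 0.21 against -0.38 and -0.00. PMAIP1, the BH3-only protein NOXA, named after its values were seen, had 1 value under paclitaxel, 0.19, against -0.72 and -0.87 under cytochalasin D.

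Among metabolic genes, the sterol enzyme CYP51A1 came closest to the threshold. It read 0.35 on both paclitaxel arrays and -0.31 and -0.29 on the cytochalasin D arrays (difference 0.65 ± 0.07, adjusted p = 0.0556). TM7SF2, a reductase of the same pathway, read 0.59 and 0.41 against 0.09 and 0.11. Among 17 genes of sterol and fatty acid synthesis 0 passed (2 at unadjusted p under 0.05, against 11.8% of all features). Their median difference was 0.02. Of 29 tested genes for drug efflux and metabolism, ABCC4 alone passed. ABCB4 was low under both drugs, at -1.12 and -1.49 under paclitaxel and -1.08 and -0.83 under cytochalasin D, and ABCG2, whose 2 probes differed by -0.0047 and -0.29, read -0.19 and 0.16 against 0.23 and 0.33. Differences of 16 hypoxia and glycolysis genes with values on all 4 arrays ran from -0.31 to 0.23, and those of 13 cytosolic ribosomal protein genes from -0.32 to 0.21, with 0 calls and 2 and 3 genes at unadjusted p under 0.05.

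Signalling and membrane genes were compared last. Of 39 tested growth factor and TGF-beta genes, 38 of vesicle and membrane traffic and 31 of the interferon response and antigen presentation, 0 passed. Unadjusted p was under 0.05 for 5, 6 and 3 of them, against 11.8% of all features. Both paclitaxel values were above for 7 of 34, 6 of 37 and 7 of 30 (20.6%, 16.2% and 23.3%, against 23.2% of all features) and below for 9, 11 and 7 (26.5%, 29.7% and 23.3%, against 22.5%). IFI35, an interferon-induced gene, read -0.14 and -0.27 under paclitaxel and -1.03 and -1.34 under cytochalasin D (difference 0.98 ± 0.14, adjusted p = 0.0977), whereas MX2, another one, read 0.00 and 0.24 against 0.60 and 0.37. SMAD3, which carries the TGF-beta signal, read 0.32 and 0.36 against -0.37 and -0.17. The coatomer subunit COPA read -0.36 and -0.32 against 0.40 and 0.42. The receptor BMPR2 showed how a gene's probes can disagree, with a difference of 1.08 on one probe and -0.02 on the other. Leukocyte, endothelial and fibroblast markers gave 0 calls among 19 (2 at unadjusted p under 0.05), a median difference of -0.04 and a range of -0.45 to 0.20.

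**Figure D5:**
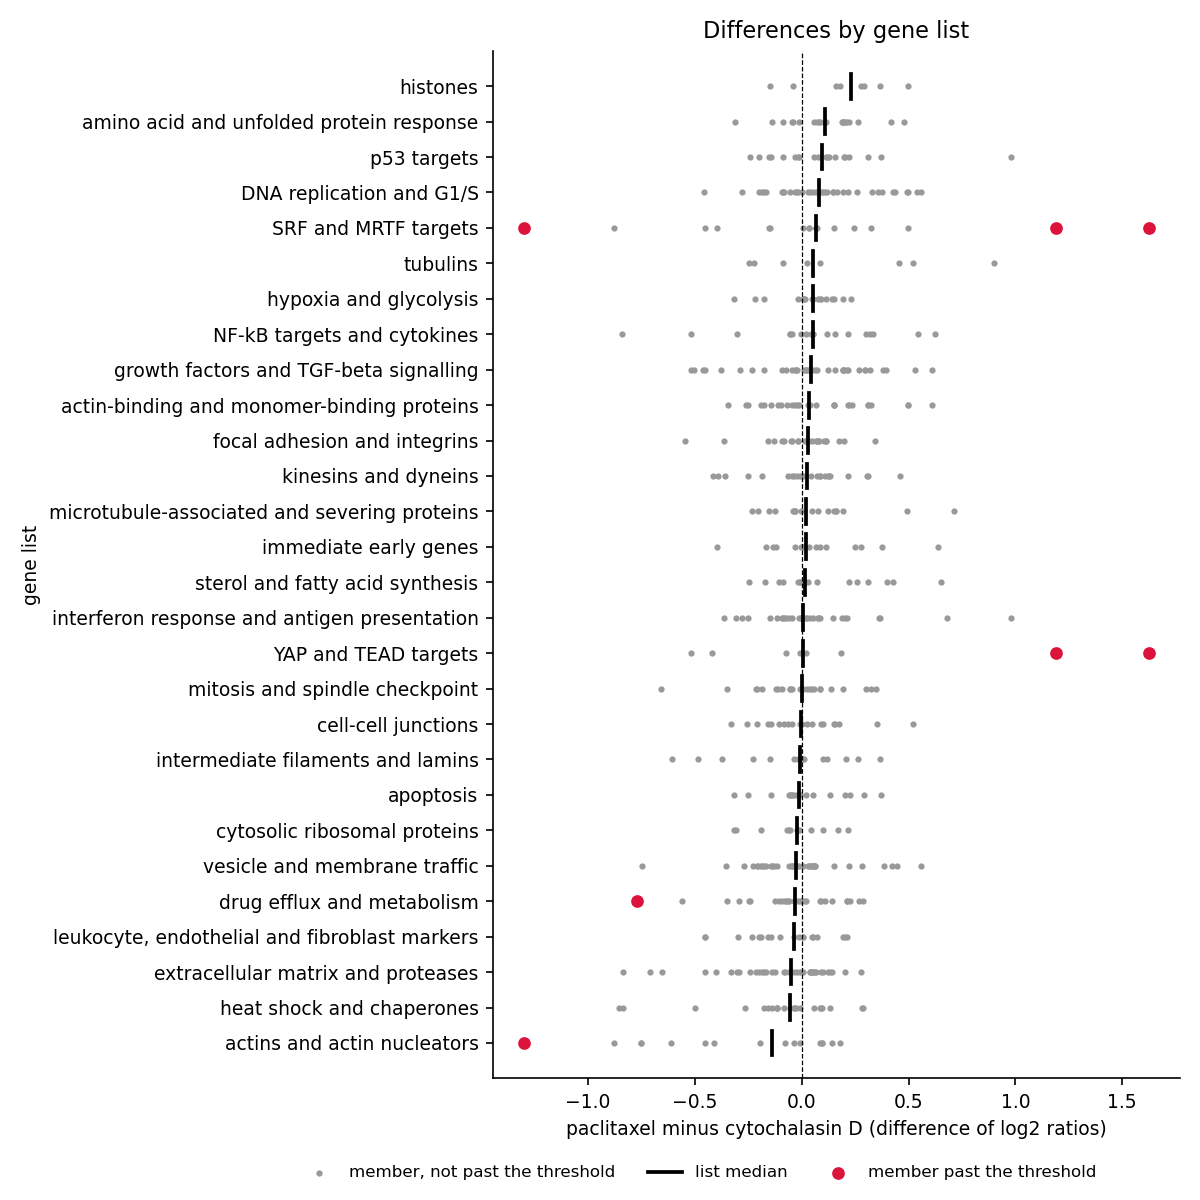
Difference of log2 ratios, paclitaxel minus cytochalasin D (horizontal axis), for each tested member of 28 gene lists (vertical axis), with the list median as a bar and members past the threshold in red. The medians lie between -0.14 (actins and actin nucleators) and 0.23 (histones), and red points occur in 4 lists, with CCN1, CCN2 and ACTG1 each in more than 1.

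In all, the 28 lists held 1140 distinct genes, of which 585 were tested. A member that lacks a probe or values is not analysed here. Outside the lists, further wide differences were seen, named here after their values were known. NOL4, a nucleolar protein, read 0.22 and 0.19 under paclitaxel and -0.94 and -0.81 under cytochalasin D (difference 1.08 ± 0.11, adjusted p = 0.0556). The transcription factor MAF, with 3 values, read 0.27 and 0.20 against -1.21 (difference 1.45 ± 0.11, adjusted p = 0.0556). CITED2, a CBP and p300 partner, read 1.38 and 0.79 against 0.35 and -0.22. Lower under paclitaxel without passing were MRNIP, at -1.38 and -1.36 against -0.50 and -0.41, FKBP9, at -0.31 and -0.10 against 0.71 and 0.55, and RGS13, at -0.43 and -0.66 against 0.24 and 0.21.

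Some of the widest differences came from a single array. SMCHD1 read -2.20 and -0.19 under paclitaxel and -0.03 and -0.04 under cytochalasin D, and PGM5 read 0.07 and 0.10 against -2.27 and -0.06. The groups did not overlap for either gene, yet nearly the whole difference lay in 1 value. Across the 6855 features, 13 were at least 1 apart and 241 (3.52%) at least 0.5 apart. Of the latter, 219 did not overlap between the drugs, 110 of them higher and 109 lower under paclitaxel. The mean ratios of the drugs had opposite signs for 159 of the 219. The larger mean ratio, regardless of sign, was that of cytochalasin D for 130 and that of paclitaxel for 89, a split that a bias between the channels can move.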

How the data were processed

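Dye-labelled RNA of treated and untreated H460 cells was compared on 2-colour arrays. The authors deposited 1 log ratio per probe and array, centred near 0. It was taken as log2 from the values. Neither log base nor numerator is given, so folds assume base 2, and a natural log would enlarge them. For background correction, dye normalization, spot filter and array software no method is stated (not given in the sources used here). Of 8170 probes, 5930 carry 1 gene symbol in GEO's platform annotation, 79 several and 2161 none. Unnamed probes were tested but not named. Probes of a gene (407 genes with more than 1) were averaged within an array after each array's median was subtracted.

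Differences were fitted with limma 3.58.1 (R 4.3.3; tables by Python 3.11.15) on 8 arrays of the same orientation, Benjamini-Hochberg adjusted over 7163 features. Another 576 features had too few values for the fit. A feature lacking an array's value was fitted without it. The method was tested on simulated data. In fits with a channel or replicate term the difference was a coefficient of its own, since limma only approximates the standard error of a contrast where values are missing. The 2 replicate numbers were not used to pair arrays in the main fit. Same-numbered deviations correlated at -0.063 to 0.090, which cannot show whether the arrays were paired, and the labels do not say. The members, gene lists and tests were chosen with earlier results of these data known, and 1 gene list is not reported here. Genes named by rule are the largest differences past the threshold (up to 15 each way). Added to them were up to 4 per list with values on all 4 arrays, and ACTB, ACTG1, TUBB, CCN1, CCN2, SRF, MDM2 and CDKN1A. Any other gene, among them ACTR3, ACTN1, ACTN2, TWF1, HSPA1B, ASNS, TRIB3, ATF4 and HMGA2, was named after its values were seen. A "±" is the fit's SE, with 2 arrays a drug and the spread estimated over 8 arrays. Alternatives changed the arrays fitted, centring, scaling, required values, probes, moderation and replicate block.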

Additional observations from a re-analysis of the deposited data

How the results depend on the processing

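The 6 calls (4 higher and 2 lower under paclitaxel) kept their number without centring and with robust moderation (run without an intensity trend, since no intensities were used). Limma's calls were 0 with the 4 arrays alone, 22 (13 higher, 9 lower) over all 12 arrays with a channel term, 18 (9 and 9) with arrays scaled to the same spread, 21 (10 and 11) after quantile normalization, 10 (6 and 4) over features on all 4 arrays, 17 (7 and 10) over features on all 8, and 5 (4 and 1) over single probes. All 6 genes were among the calls in the 12-array, scaled, quantile and complete-value fits. With a minimum difference of 1, 4 remained (3 and 1). With the replicate number as a block, 4 were called (3 and 1): CCN2, CCN1, BRAP and ACTG1. Leaving out 1 array gave 0 to 7 calls, 0 to 4 higher and 0 to 3 lower. The cause of these changes was not tested. No scaling moved the median of all features beyond 0.0036. Directions reversed for few genes, none past the threshold: BMPR2 by its first probe (-0.021), and in leave-one-out fits ABCG1 (range -0.054 to 0.63), EIF2AK2 (-0.092 to 0.82) and MDM2 (-0.12 to 0.052). Against cytarabine alone, paclitaxel turned to 0.26 for ABCC4, -0.14 for BRAP, -0.27 for CCN2 and 0.11 for EXO1. Signal over background, which limits dim genes, was not used here.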
